A study of Mus musculus with 22 samples.

Results

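Many genes begin transcription at more than 1 site, and the deposited annotation separates reads that begin inside a gene's annotated 5' untranslated region (5' UTR) from reads that begin before it. The regions described here are the features of the class "Coding upstream" in genes that also have a "Coding 5'-UTR" feature. These were 1366 upstream features in 1218 genes, of 4060 upstream features in 3693 genes and of 112460 features in all; the other 2475 genes with an upstream feature had no 5' UTR feature and do not belong. For 161 of the 1366 upstream features the nearest 5' UTR feature of the gene lay before the upstream feature, so the class is named as annotated. The readout is the upstream share, which is the percentage of a gene's upstream plus 5' UTR reads that are upstream.

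The reads came from STRT sequencing, which tags RNA at its 5' end, of primary motor cortex (M1) biopsies from male C57BL/6 mice aged 16 to 20 weeks. BERKO mice (ERb-/-) lack estrogen receptor beta, the product of Esr2, and 5 of them (replicates 2 to 6) were set against 6 wild-type (WT) mice (replicates 1 to 6). All 11 mice gave a right and a left needle biopsy of the tissue, so 22 biopsies were used; the series text says that 6 BERKO mice entered and that 1 BERKO sample was removed as an outlier. By a code in the column names, taken as the well, plate rows A to C held WT and D to F held BERKO, with right biopsies in A and D, so plate row cannot be told apart from genotype or side.

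RNA polymerase II starts at a core promoter, where general transcription factors assemble around the start site. Promoters with a TATA box tend to start at a sharp position, whereas promoters within CpG islands, which serve most housekeeping genes and many neuronal genes, start over a broad stretch or at several sites. Alternative starts change the length and sequence of the 5' UTR, and with it features that ribosomes read, or the first exon. In brain, genes such as Bdnf and Gnas are well known for using several promoters.

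Bases 40 to 11 before the annotated RefSeq start (GRCm38.p6) are shown for genes at the ends of the range, because a TATA box lies in this stretch. The first pair are the members with TATAAA there (in capitals) among 174 tested genes searched, which have a single annotated start and exclude 1 chromosome that was not searched; both began almost all reads in the 5' UTR. The other three have no TATAAA there and are the ones with most upstream reads among those of the 174 that upstream reads lead.
Ckb, chr12:111672349-111672378, minus strand: gaatgaatgggcTATAAAtagccgccaatg
Ppia, chr11:6415827-6415856, plus strand: cccgaaccgggTATAAAggaagccgcggcg
Mobp, chr9:120149702-120149731, plus strand: gagcctctccctatatattcctcgtgtact
Ift20, chr11:78536321-78536350, plus strand: gggaacaaatctacttcccgtgtcgtagtc
Ywhaq, chr12:21417447-21417476, minus strand: cggctgcaacagccgccgcgaggtaccgag
The mean upstream share over the 11 mice was 0.0536% for Ckb, the brain creatine kinase, and 0.172% for Ppia, which encodes cyclophilin A. It was 99.0% for Mobp, 97.9% for Ift20 and 88.0% for Ywhaq. A match or its lack describes these letters and is no evidence of a factor's binding. The stretches were not matched to the positions of the upstream or 5' UTR features. They need not precede the starts that the reads used, so they do not tell the upstream starts from the others.

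The member genes held 10.0% to 11.9% of endogenous reads in the 22 biopsies. Per mouse they held 10.7 ± 0.134% in BERKO mice and 10.9 ± 0.449% in WT mice (SD, n = 5 and 6). Endogenous reads per mouse were 1397811 ± 249254 in BERKO and 2193736 ± 569477 in WT, and biopsies ranged from 248354 to 2011941. The shallowest is the left biopsy of BERKO replicate 5, which has 1 lane where the others have 3. The right and left biopsies of WT replicate 1 and the left biopsy of WT replicate 2 stood apart from the rest in earlier work on these data. All 8 markers of cortical excitatory neurons were detected, as the tissue label would have it, with a summed level per mouse of 3462 to 5153 CPM in BERKO and 2016 to 4185 CPM in WT. The 8 oligodendrocyte markers summed to 5029 to 12981 CPM in BERKO and 2134 to 10919 CPM in WT, and the 7 meningeal fibroblast markers to 5858 to 10493 CPM in BERKO and 1938 to 8277 CPM in WT. The 8 microglia markers summed to 874.0 to 1054 CPM in BERKO and 554.9 to 876.6 CPM in WT, and the 8 endothelial and mural markers to 501.3 to 864.7 CPM in BERKO and 293.7 to 561.7 CPM in WT. The 9 astrocyte markers summed to 7684 to 9472 CPM in BERKO and 6012 to 8492 CPM in WT, and 7 striatal markers to 172.5 to 323.6 CPM in BERKO and 77.4 to 234.8 CPM in WT. The genotypes overlapped in all 7 lists, no marker counted was at 0 throughout, and their part in the results below was not tested. In bulk tissue, fewer cells of a type and less RNA per cell cannot be told apart.

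Member genes ranged from starting nearly all reads upstream to starting nearly none there. Of the 1218 genes, 958 had reads of both classes, 182 had 5' UTR reads only, 51 had upstream reads only and 27 had none. Reads were many enough to test the share in 433 genes, which averaged at least 10 reads of both classes and 2 of each class per mouse, and 785 were left out. Because the filter asks for upstream reads, a gene with a low share passed it only with many reads in all. Over the genes tested the mean share had a median of 16.5% (interquartile range 5.25% to 54.0%, highest 99.4%). It was under 5% in 104 genes, 5% to 20% in 132, 20% to 50% in 80 and over 50% in 117. In 53 genes the share exceeded 50% in every mouse with reads, in 222 it stayed under 50% in every such mouse, and in 158 the mice lay on both sides.

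**Figure D1:**
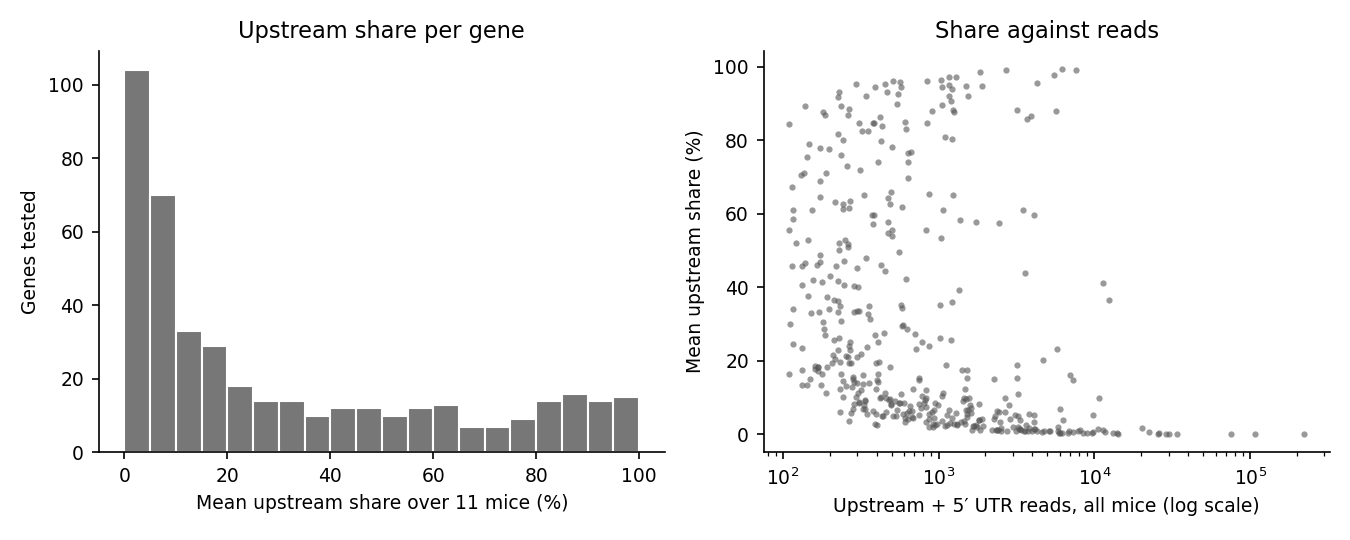
Left, number of tested genes (y axis) by mean upstream share over 11 mice in percent (x axis, bins of 5 points). Right, mean upstream share in percent (y axis) of each tested gene against its upstream plus 5' UTR reads in all mice (x axis, log scale); genes under 5% are the largest bin with 104 genes.

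Reads were concentrated in few genes. The members held 204534 upstream reads over all biopsies, of which the 8 genes with most held 23.7% and the 100 genes with most held 73.5%. These 8 genes are described first. Positions are those of the files, on mm9, and are the single positions the annotation gives.

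Nsg1, which encodes a neuronal endosomal protein, had most upstream reads, 8068 against 17 in the 5' UTR. Its upstream feature lies at position 38550707 on chromosome 5, minus strand, 451 bases before the 5' UTR feature. The upstream share was 100%, 100%, 99.5%, 100% and 100% in the BERKO mice, and 99.5% to 100% with a median of 99.8% in the WT mice. Rbsn, whose product rabenosyn-5 acts on early endosomes, had 7109 upstream reads and 0 in the 5' UTR in every mouse. Its 2 features lie 157 bases apart. These 2 genes had too few 5' UTR reads for a test.

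Mobp encodes a structural protein of myelin made by oligodendrocytes. Its upstream feature, at position 120058859 on chromosome 9, plus strand, lies 4994 bases before the 5' UTR feature. The share was 100%, 99.7%, 98.9%, 100% and 99.6% in the BERKO mice, and 93.5% to 100% with a median of 99.3% in the WT mice. The genotypes overlapped, and the low end was a single WT mouse, replicate 1. Atp2b1, a calcium pump of the plasma membrane, was equally one-sided. Its share was 99.7%, 99.9%, 99.8%, 99.5% and 99.5% in the BERKO mice, and 98.1% to 100% with a median of 99.3% in the WT mice.

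Ift20, a subunit of the transport particles that build cilia, had a share of 98.9%, 97.2%, 100%, 95.5% and 97.7% in the BERKO mice. In the WT mice it ran from 94.4% to 99.5% with a median of 98.7%, so both genotypes covered the same range. Ywhaq, the theta member of the 14-3-3 adaptor proteins, split a little more, with 5002 upstream and 642 5' UTR reads. Its share was 73.4%, 89.0%, 90.8%, 89.8% and 87.6% in the BERKO mice, and 84.2% to 95.6% with a median of 89.2% in the WT mice. BERKO replicate 2 was the lowest of all 11 mice.

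Cnp and Prkar1b were the 2 genes of the 8 that used both regions in bulk. Cnp encodes the myelin enzyme CNPase, and its upstream feature lies downstream of its 5' UTR feature, at a distance of -838 bases. The Cnp share was 44.1%, 42.4%, 40.9%, 51.6% and 44.8% in the BERKO mice, and 24.6% to 46.5% with a median of 41.2% in the WT mice. Prkar1b encodes a regulatory subunit of cAMP-dependent protein kinase that is abundant in brain. Its share was 34.9%, 50.2%, 38.9%, 46.6% and 38.6% in the BERKO mice, and 18.8% to 40.2% with a median of 34.9% in the WT mice. The genotypes overlapped in both genes, with 1 BERKO mouse above every WT mouse for Cnp and 2 for Prkar1b. The log2 odds ratio of an upstream read, BERKO over WT, was 0.40 ± 0.59 for Cnp and 0.64 ± 0.61 for Prkar1b (SE), within 1 SE of 0 for Cnp and just beyond 1 SE for Prkar1b, and neither passed the test.

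**Figure D2:**
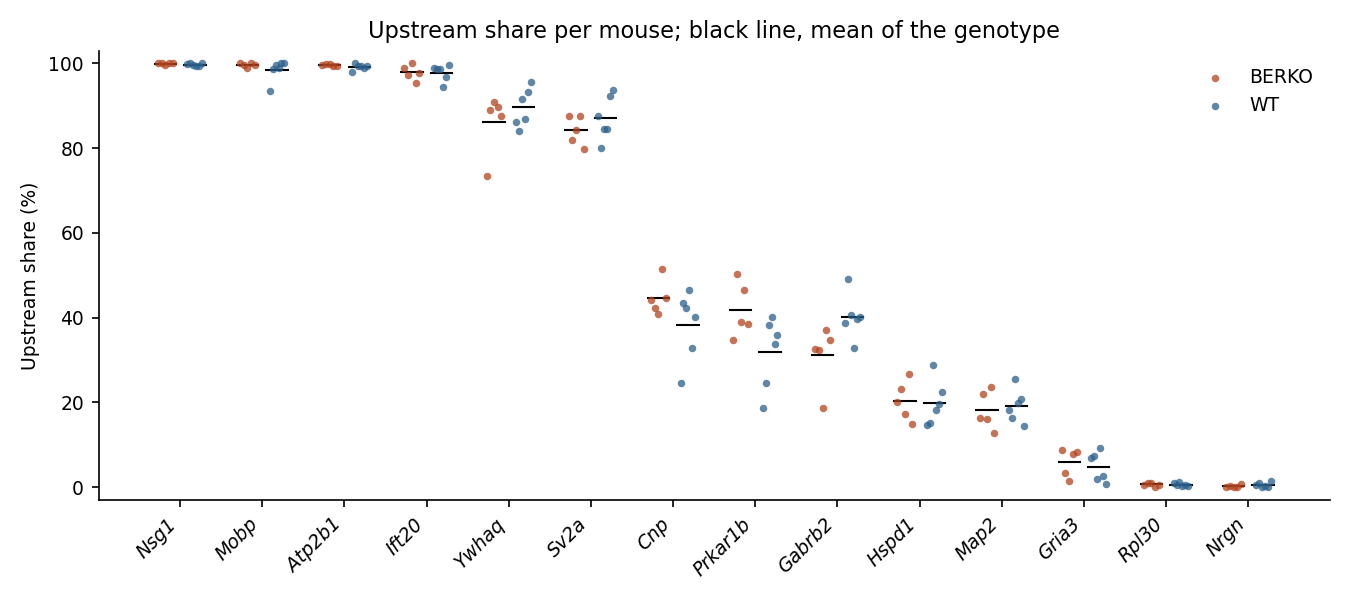
Upstream share in percent (y axis) of 14 named genes (x axis), with 1 point per mouse, BERKO left (5 mice, orange) and WT right (6 mice, blue); black lines are genotype means. Genes differ far more than genotypes do, from Nsg1 at 99.5% and above in every mouse to Nrgn, whose highest value was 1.38%.

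Among the genes tested with at least 50 reads of both classes per mouse, the highest mean shares belonged to Atp2b1, Arpp21, Mobp, Cdip1 and Ift20, at 97.9% to 99.4%. Arpp21, a neuronal phosphoprotein regulated through cAMP, has 3 upstream features, of which the leading one held 52.9% of its upstream reads. Their distances to the nearest 5' UTR feature are -46442, -44462 and 2450 bases, where a negative value places the upstream feature downstream. Among the lowest mean shares were those of Apoe (0.0495%), Ckb (0.0536%), Rplp2 (0.0896%) and Calm2 (0.109%). Apoe encodes the lipid carrier of astrocytes, Rplp2 a protein of the ribosomal stalk, and Calm2 the calcium sensor calmodulin. The upstream feature of Apoe also lies downstream of its nearest 5' UTR feature, at a distance of -104 bases. The Apoe share was 0.0617%, 0%, 0.0817%, 0% and 0.0994% in the BERKO mice and 0% to 0.142% in the WT mice. The reads behind these shares are few: the BERKO mice had 5, 0, 8, 0 and 12 upstream reads of Apoe.

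Lists of genes by role were compared with these shares as a description. Of the 9 ribosomal protein genes among the members, 8 had under 5% of reads upstream. Rpl30 had 22225 5' UTR reads and 149 upstream; its share was 0.559%, 0.946%, 1.07%, 0.0898% and 0.555% in the BERKO mice and 0.228% to 1.13% in the WT mice. The exception was Rps19, with 1098 upstream and 152 5' UTR reads and a share of 87.2 ± 5.42% in BERKO and 88.1 ± 10.9% in WT (SD, n = 5 and 6); its features lie 187 bases apart. Ribosomal protein genes have many near-identical processed copies, so their reads may not all be uniquely placed. All 3 members of the translation factor list (Eif4a2, Nap1l1 and Hnrnpa1) and all 6 nuclear genes of the respiratory chain (among them Ndufs3 and Uqcrc2) were under 5% as well. These counts include members with too few reads for a test; among all 1191 member genes with reads, 41.8% were under 5%.

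Synaptic genes were found at both ends. Of 8 members on the list of glutamatergic synapse genes, Gria1, Gria4, Dlg4 and Dlg2 had more than 50% of reads upstream, and Gria1 reached 99.6 ± 0.359% in BERKO and 99.8 ± 0.327% in WT (SD). Gria1 and Gria4 encode AMPA receptor subunits, and Dlg4 encodes the postsynaptic scaffold PSD-95. Gria3, another AMPA receptor subunit, stood at 5.93 ± 3.28% in BERKO and 4.79 ± 3.46% in WT. Nrgn, a calmodulin-binding protein of the postsynapse and a marker of excitatory neurons, had 34 upstream and 9605 5' UTR reads. Its share was 0%, 0.198%, 0%, 0.152% and 0.723% in the BERKO mice and 0% to 1.38% in the WT mice.

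On the presynaptic side, Sv2a, a glycoprotein of synaptic vesicles, began most reads at a region 3702 bases before its 5' UTR feature. Its share was 87.6%, 81.9%, 84.3%, 87.5% and 79.9% in the BERKO mice, and 79.9% to 93.8% with a median of 86.1% in the WT mice. Rab3c, a small GTPase of synaptic vesicles, had a share of 0.782 ± 0.514% in BERKO and 1.62 ± 1.18% in WT. Gabrb2, a GABA-A receptor subunit, used both regions. Its share was 32.6%, 32.4%, 18.8%, 37.1% and 34.8% in the BERKO mice, and 33.0% to 49.2% with a median of 39.9% in the WT mice, so that only BERKO replicates 5 and 6 reached into the WT range. For Gabrb2 the log2 odds ratio was -0.59 ± 0.61 (SE), within the error.

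The microtubule-associated proteins of dendrites, Map2 and Map1a, also used both regions. The Map2 share was 18.2 ± 4.52% in BERKO and 19.2 ± 3.85% in WT, and the Map1a share 14.7 ± 4.50% in BERKO and 15.8 ± 7.02% in WT (SD, n = 5 and 6). Hspd1, the mitochondrial chaperonin, stood at 20.4 ± 4.70% in BERKO and 19.8 ± 5.26% in WT. For these 3 genes the genotype means differed by less than the spread between mice. Intervals (95%) of the log2 odds ratio were -1.20 to 0.97 for Map2, -1.28 to 1.17 for Map1a and -1.03 to 1.16 for Hspd1.

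All 5 members on the list of steroid and nuclear receptors had more than 50% of their reads in the upstream class, where 26.1% of the 1191 member genes with reads did. Of the 5, only Rorb and Nr2f2 had reads enough for a test. Esrra had 33 reads in all and Esr2 had 3, so the list count rests partly on few reads. Rorb, an orphan receptor of layer 4 neurons, had 1125 upstream and 33 5' UTR reads. Its share was 100%, 100%, 79.8%, 100% and 100% in the BERKO mice, and 96.5% to 100% with a median of 98.7% in the WT mice. Thrb, the beta receptor of thyroid hormone, stood at 96.3 ± 6.67% over all mice. Nr2f2 (COUP-TFII) varied from mouse to mouse, with 25%, 100%, 77.8%, 33.3% and 84.6% in the BERKO mice and 33.3% to 82.5% in the WT mice. Its upstream feature lies downstream of its 5' UTR feature, at a distance of -5177 bases. BERKO replicates 2 and 5 had 2 upstream reads of Nr2f2 each. Esr2 itself is a member with 3 reads in all, upstream in WT replicate 1, so the knockout could not be checked in this readout.

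Of the genes listed for known alternative promoters in brain, 11 are members and 4 of them had under 5% of reads upstream. Gnas, which encodes a stimulatory G protein subunit, had a share of 6.50%, 5.33%, 1.35%, 4.07% and 4.69% in the BERKO mice and 2.42% to 15.8% in the WT mice. The highest value was WT replicate 1. Rtn4, which encodes the axon growth inhibitor Nogo, had 54 upstream and 4035 5' UTR reads, the regions lying 25083 bases apart. Ank3, a scaffold of the axon initial segment, stood at 83.7 ± 12.8% in BERKO and 84.2 ± 15.5% in WT.

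The spacing of the regions was regular for most features. Of the 1366 upstream features, 1205 had their nearest 5' UTR feature downstream, at a median of 389 bases (interquartile range 261 to 551), and 1036 lay 1 to 1000 bases before it. In 161 the nearest 5' UTR feature lay on the other side, and only 5 features lay within 50 bases of a 5' UTR feature. Of the genes, 1091 had 1 upstream feature, 107 had 2 and 20 had 3 or more. The distance between the leading regions of each gene had a median of 400 bases in genes with a share under 5%, 316 at 5% to 20%, 331 at 20% to 50% and 428 over 50%. The median distance therefore did not order the genes by share. The leading upstream region lay 1 to 1000 bases before the leading 5' UTR region in 76.9% of genes under 5%. In the higher ranges of share this was 59.8%, 57.5% and 56.4%, and no test was made.

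**Figure D3:**
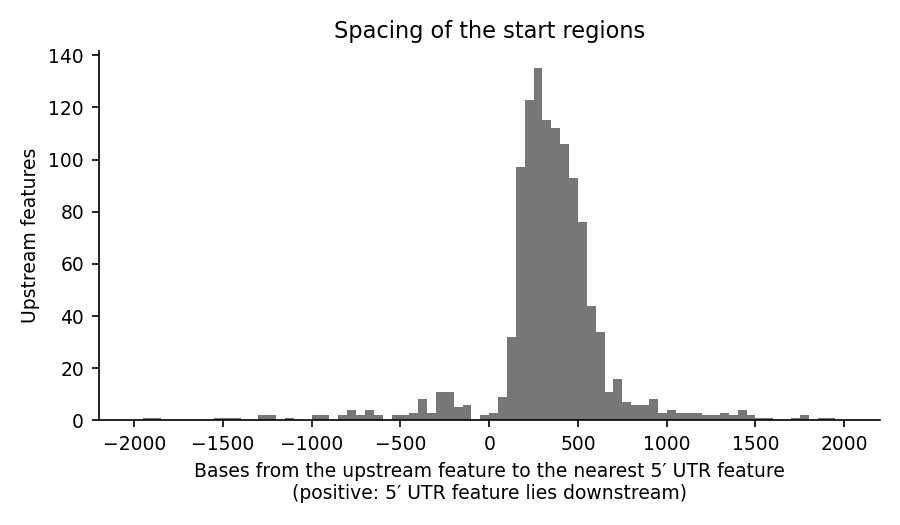
Number of upstream features (y axis, bins of 50 bases) by distance in bases to the nearest 5' UTR feature of the same gene (x axis; positive where the 5' UTR feature is downstream), for the 1152 features within 2000 bases. Most features form a single peak around the median of 389 bases.

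RefSeq promoter windows of 300 bases (250 before to 50 after each annotated start) were matched to 987 of the 1218 genes, 355 of the 433 tested. TATAAA on either strand occurred in 7.68% of the members' windows and 13.6% of all 32851 windows. By upstream share the figure was 8.33% under 5%, 7.42% at 5% to 20%, 6.00% at 20% to 50% and 3.39% over 50%, from 12, 17, 9 and 6 windows. Bases 40 to 11 before the start were also searched, on the strand of the gene alone. There TATAAA occurred in 2.08%, 0.437%, 2.00% and 0.565% of windows in these ranges. That was 3, 1, 3 and 1 windows, with no order by share. GGGCGG on either strand, the core of the Sp1 motif, occurred in 53.2% of the members' windows and 35.7% of all windows, and in 49.2% to 52.4% of the windows across the 4 ranges of share. CCAAT occurred in 35.4% of the members' windows and 37.4% of all windows, and CTTTTCC in 8.03% and 8.06%. Each motif was counted on its own, so matches may overlap. The median ratio of observed to expected CpG was 0.659 in the members and 0.384 in all windows. At least 2 annotated starts were listed for 43.7% of the matched genes and 15.4% of all genes; among tested genes it was 37.6% under 5%, 59.1% at 5% to 20%, 58.5% at 20% to 50% and 48.4% over 50%. No test was made on these figures. The windows follow annotated starts and were not matched to the positions of the features.

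The comparison of BERKO with WT asked whether losing the receptor moved reads between upstream and 5' UTR starts. Summed over all member genes, the share was 9.32%, 8.71%, 8.89%, 9.50% and 8.60% in the BERKO mice, a mean of 9.0 ± 0.389%. In the WT mice it ran from 8.84% to 10.3%, a mean of 9.56 ± 0.592% (SD, n = 6). The genotypes overlapped and their means differed by -0.558 points. The median share over the 433 genes was 12.7 ± 1.32% in BERKO and 15.7 ± 1.85% in WT, again with overlap. With reads thinned to 107108 per mouse in a single draw, it was 11.1% to 13.6% in the BERKO mice (mean 12.3 ± 1.03%). In the WT mice it was then 13.7% to 17.5% (mean 15.4 ± 1.49%). Here the genotypes did not overlap, by a narrow margin of 13.64% against 13.68%. The summed share after thinning did overlap, at 8.59% to 9.50% in BERKO and 8.85% to 10.3% in WT mice. These summaries run over members and got no test. Alongside them, reads in coding sequence and 3' UTRs made up 17.7 ± 1.28% of endogenous reads in BERKO and 14.0 ± 1.80% in WT, with overlap; the part of this difference in the share was not tested.

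**Figure D4:**
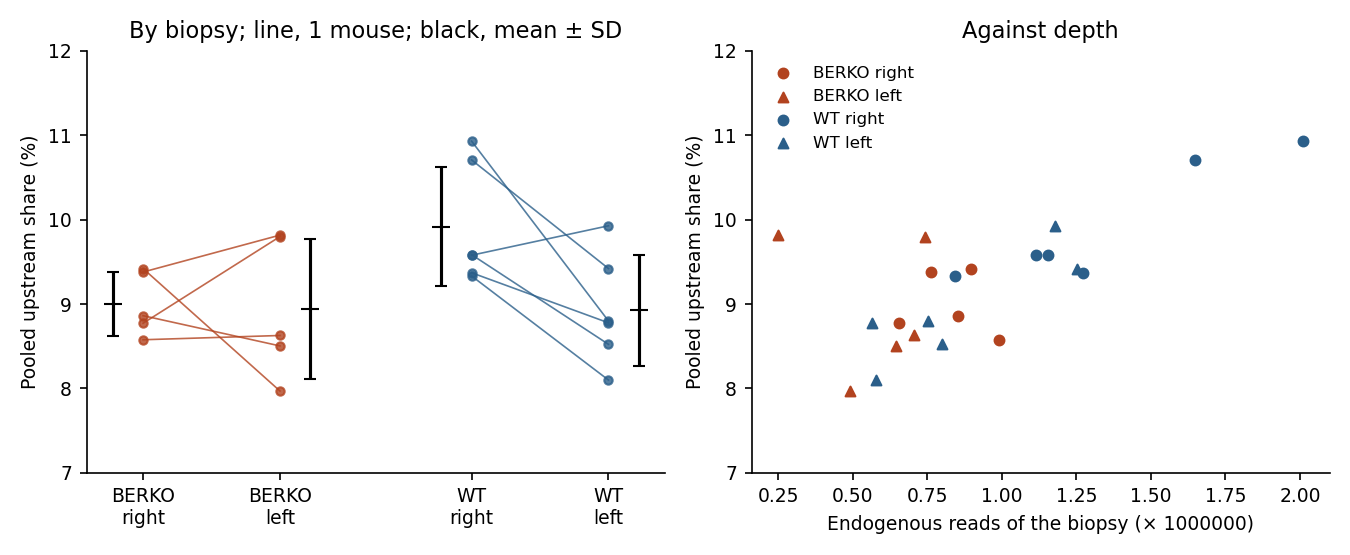
Upstream share in percent summed over the member genes (y axes, starting at 7%). Left, each biopsy by genotype and side, with lines joining the biopsies of a mouse and black bars for mean ± SD; right, the same values against endogenous reads in units of 1000000, where the 2 deepest biopsies, right ones of WT, are the highest at 10.7% and 10.9%.

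No gene passed the test of the share between BERKO and WT. Called at an adjusted p under 0.05 were 0 of 433 genes (0%) by edgeR's quasi-likelihood test, with a smallest adjusted p of 0.995. DESeq2 and limma called 0 as well. At an unadjusted p under 0.05 there were 19 genes (4.39%), 7 higher (1.62%) and 12 lower (2.77%) in BERKO, where DESeq2 gave 30 and limma 26. The odds ratio was above 1 in 191 genes and below 1 in 242, with a median log2 value of -0.10. The mean shares of BERKO and WT had a Spearman correlation of 0.926 over the 433 genes, and 104 genes were over 50% in both genotypes, 15 in BERKO only and 14 in WT only. The genes of a mouse share a library, and the correlation is a description only.

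Shares in mice of a genotype spread by more than the counting error of independent reads. The part of the mouse in this spread was not separated from that of the biopsy and its library. The chi-square of the share between mice of a genotype had a median of 4.34 per degree of freedom over genes, and 391 of 433 genes (90.3%) exceeded 2. Between lanes of a biopsy it was 0.601, below 1, so lanes repeated each other more closely than independent sampling would. The standard error of the log2 odds ratio had a median of 1.12; it was 1.41 in genes with under 300 reads, 0.863 at 1000 to 3000 and 0.922 in genes with over 3000. A log2 odds ratio of 1 is smaller than this median error, so a change of that size was not detectable in a typical gene at this depth, which does not show that none occurred. Larger changes were mostly missed too. In simulated counts with 200 changed genes, this test called 0.935% of changes of log2 size 1 and 5.38% of size 2. The 0 calls therefore do not exclude changes of either size.

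**Figure D5:**
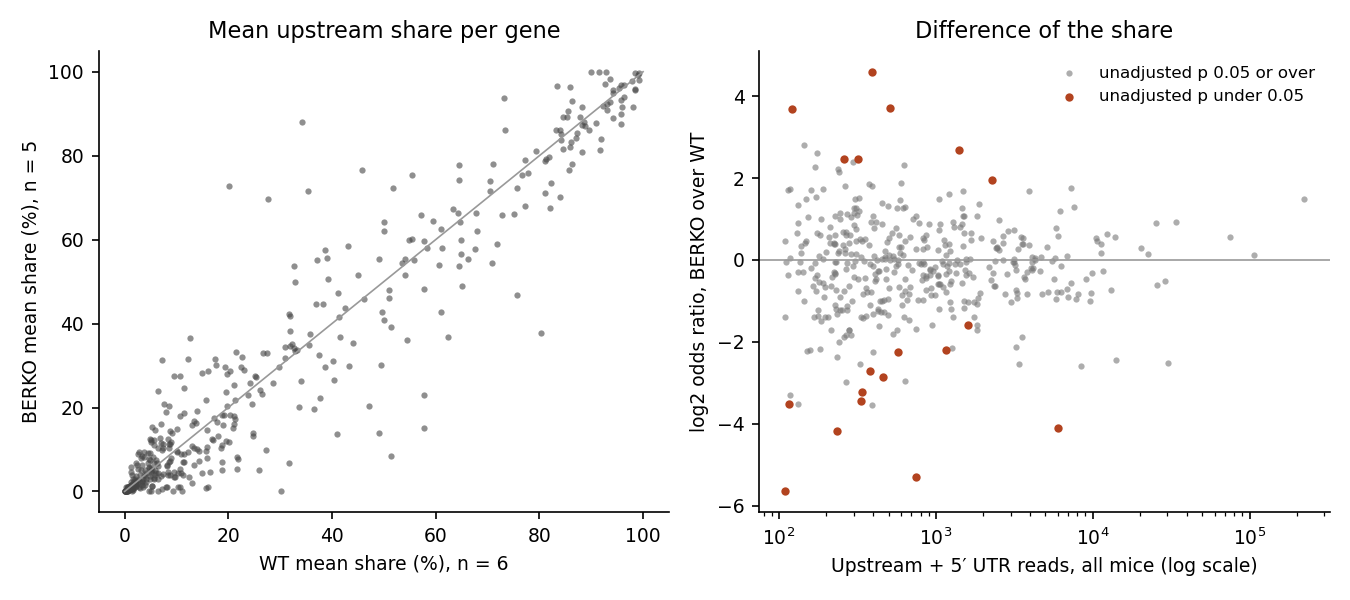
Left, mean upstream share in percent in BERKO (y axis, 5 mice) against WT (x axis, 6 mice) for 433 genes, with the line of equality. Right, log2 odds ratio of an upstream read, BERKO over WT (y axis), against reads of both classes (x axis, log scale), with the 19 genes at an unadjusted p under 0.05 in orange; none passed after adjustment.

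The 10 genes with the smallest p are described without a call. In Fgf14, which encodes a regulator of neuronal sodium channels, the share was 100% in all 5 BERKO mice, and 76.9% to 100% with a median of 92.3% in the WT mice. BERKO mice had 112 upstream and 0 5' UTR reads, which allows a 5' UTR share of up to 2.68%, and WT mice had 249 and 32. In Ccdc190 the share was 0% in all 5 BERKO mice and 0% to 69.2% in the WT mice, with 0 upstream and 42 5' UTR reads in BERKO, which allows up to 7.14%, against 26 and 42 in WT. In Dpysl3, an axon guidance phosphoprotein of the CRMP family, BERKO mice had 0 upstream and 229 5' UTR reads, which allows up to 1.31%, and WT mice had 54 and 461. Klhl13, a ubiquitin ligase adaptor, had 0 and 68 reads in BERKO, which allows up to 4.41%, and 23 and 143 in WT. Such genes at 0 numbered 10 of 433, and in each the 0 was in BERKO, the genotype with fewer reads. These genes passed the filter of 2 reads of each class per mouse only through WT reads of the missing class. Those reads were few, at 22 in Akap8, Gbf1 and Zbtb20 and 23 in Klhl13, Sox5 and Trpm3. A 0 in BERKO alone is therefore no support for a difference.

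The other 6 had reads of both classes in both genotypes. Ache, which encodes acetylcholinesterase, had shares of 0%, 4.35%, 0%, 0% and 0% in the BERKO mice and 0% to 23.2% with a median of 19.1% in the WT mice. Only WT replicate 2 lay in the BERKO range. Prkag2, a regulatory subunit of AMP-activated kinase, had shares of 0%, 0%, 0%, 5.26% and 0% in the BERKO mice and 3.57% to 33.3% in the WT mice, with 1 upstream read in BERKO and 40 in WT. Dhcr7, the last enzyme of cholesterol synthesis, had 5.26% in BERKO replicate 5 and 0% in the other BERKO mice, against 1.28% to 20.0% in WT mice. In Ache, Prkag2 and Dhcr7 only 1 BERKO mouse had upstream reads, so these genes too passed the filter only through WT reads. Their odds ratios are therefore no support for a difference. The log2 odds ratio was -3.45 ± 1.26 for Ache, -3.21 ± 1.20 for Prkag2 and -2.85 ± 1.22 for Dhcr7 (SE; edgeR adjusted p = 0.995 for each).

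Sidt1 had 0%, 38.5%, 50.0%, 50.0% and 50.0% in the BERKO mice and 28.6% to 100% in the WT mice, from 116 reads in all. Phax, an adaptor for nuclear export of small nuclear RNAs, had a share of 6.70 ± 2.53% in BERKO and 2.13 ± 2.18% in WT. Zfos1 had 7.84%, 8.33%, 7.32%, 5.08% and 1.00% in the BERKO mice and 0% to 5.38% in the WT mice. It came to a log2 odds ratio of 1.96 ± 0.80 for Phax and 2.68 ± 1.10 for Zfos1 (SE; edgeR adjusted p = 0.995 for both). For Phax and Zfos1 the genotypes overlapped. The shares of Dock9, chosen here because it alone of 433 genes (0.231%) did not overlap, were 75% to 100% in the 3 BERKO mice with reads and 0% to 71.0% in 6 WT mice, on 122 reads.

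Of 7 genes that differed between genotypes in earlier work on the whole series, Lingo1 alone is a member. Lingo1, a membrane protein that restrains myelination, had 169 upstream and 426 5' UTR reads. Its share was 19.6%, 22.9%, 15.9%, 62.5% and 27.0% in the BERKO mice, and 0% to 55.2% with a median of 32.7% in the WT mice. The log2 odds ratio was 0.16 ± 1.03 (SE), with a 95% interval of -1.86 to 2.18, and its sign changed without WT replicates 1 or 6 or without BERKO replicate 5.

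The 2 classes were also tested apart, as summed reads of each gene and class, in a fit over 13201 rows of all classes. Of these, 15 (0.114%) were called and 1524 (11.5%) had an unadjusted p under 0.05. Among members, 243 upstream rows and 662 5' UTR rows passed the expression filter. Of these edgeR called 0, with 25 (10.3%) and 76 (11.5%) at an unadjusted p under 0.05. DESeq2 called 10 of the 426 member rows it adjusted, beside 118 of 5305 rows in all. The median log2 fold change, BERKO over WT, was -0.16 for the upstream rows and -0.12 for the 5' UTR rows of members, beside -0.00 over all rows, 0.31 over coding sequence rows and 0.34 over 3' UTR rows. With spike-in reads as library size all rows moved to a median of 0.25, and these members stood at 0.09 and 0.13, still 0.15 and 0.12 below all rows. Levels did not overlap between genotypes in 5 upstream rows (2.06%) and 11 5' UTR rows (1.66%), beside 1.87% of all rows.

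Among the member rows with the smallest p were 5' UTR rows of Rab3c and Prepl. Rab3c had 264.5 ± 51.6 CPM in BERKO and 468.7 ± 142.6 CPM in WT (SD, n = 5 and 6), a log2 fold change of -0.83 ± 0.18 (SE; edgeR adjusted p = 0.0643). Prepl, a peptidase-like protein of the synapse, had 2131 ± 330.9 CPM in BERKO and 2989 ± 288.2 CPM in WT, with -0.49 ± 0.11 (adjusted p = 0.0959). The 5 BERKO mice lay below the 6 WT mice in both genes. The smallest p of an upstream row was that of Nsg1, at 315.6 ± 48.9 CPM in BERKO and 460.5 ± 79.3 CPM in WT, with -0.54 ± 0.15 (adjusted p = 0.153), and here the mice did not overlap either. None of these rows is a call by edgeR with its default filter. DESeq2 called the rows of Rab3c, Prepl and Nsg1 (adjusted p = 0.00468, 0.00905 and 0.0222), as did edgeR without the filter (adjusted p = 8.31e-05, 0.00150 and 0.0400). Without WT replicate 4, Rab3c and Prepl passed, each with an edgeR adjusted p of 0.0378.

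Between the sides, the summed share was 9.0 ± 0.378% in right and 8.94 ± 0.827% in left biopsies of BERKO mice, and right was higher in 2 of 5 mice. In WT mice it was 9.92 ± 0.709% in right and 8.92 ± 0.653% in left biopsies, and right was higher in 5 of 6. The right biopsy was also the deeper in 5 of 6 WT mice and in 4 of 5 BERKO mice; the part of depth was not tested. By edgeR with the mouse as a block, 0 of 433 genes (0%) were called for right against left, with a smallest adjusted p of 0.821 and 23 genes (5.31%) at an unadjusted p under 0.05. Within the right side alone 0 were called between genotypes (24 at an unadjusted p under 0.05, 5.54%), within the left side alone 0 (21, 4.85%), and for the difference of the genotype effect between sides 0 (21, 4.85%).

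The smallest p for right against left belonged to Mbnl1, Znhit1 and Psme2. Mbnl1 encodes a splicing regulator, and its share was 35.6 ± 31.2% in right and 3.33 ± 10.5% in left biopsies (SD, n = 11 and 10), higher on the right in 7 of 10 mice and lower in 0. Its log2 odds ratio was 4.18 ± 1.60 (SE; edgeR adjusted p = 0.821) on 266 reads. Psme2, a subunit of the proteasome activator PA28, had 3.00 ± 3.85% in right and 0.420 ± 1.39% in left biopsies. Znhit1 went the other way, with 0.655 ± 1.5% in right and 8.32 ± 11.8% in left biopsies. For the difference of the genotype effect between sides they were Akt2, a kinase of insulin signalling, Kcnab2, a potassium channel subunit, and Rapgef4, a cAMP-activated exchange factor. The Akt2 share on the right was 7.15 ± 12.0% in BERKO and 21.6 ± 17.7% in WT, and on the left 17.3 ± 14.0% in BERKO and 0.788 ± 1.27% in WT, with an adjusted p of 0.624 by edgeR.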

How the data were processed

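Whole-number counts of reads by feature were deposited, with an annotation by the authors that gives each feature 1 position, a strand, a gene and a class. Per the submitters' processing notes, build mm9, Bowtie and TopHat2 2.0.12 were used; the sources used here do not say how features were drawn, how far the upstream class reaches or how duplicate reads were handled. Counts of the lanes of a biopsy were summed, and both biopsies of a mouse were summed for the genotype test. Mouse numbers were taken from the final digit of the column names. Counts are reads after PCR, and the floors (3 reads for a count of 0) cover counting error only. Intervals of the log2 odds ratio rest on the standard errors of the fit, which take in the spread between mice.

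For each gene tested, the upstream and 5' UTR counts of a mouse entered edgeR 4.0.16 (R 4.3.3; quasi-likelihood test, robust, two-sided, Benjamini-Hochberg adjustment over all genes, threshold 0.05) as 2 columns with the same library size, with a term per mouse, class, and class by genotype. Side tests used biopsies with class by mouse as a block. Summed reads of every gene and class were tested with TMM scaling and the default filter; CPM are from that fit. DESeq2 1.42.0 and limma 3.58.1 were alternatives, and the fits were tested on simulated data. Standard errors are the log2 value divided by the square root of F, and intervals are at 95%. Other filters, scalings, thinned reads, the block by replicate number and left-out mice or libraries were tried as alternatives. Annotation rows without counts (2531) were not analysed here.

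The genes named are the 8 with most upstream reads; the 5 highest and 5 lowest shares among genes with 50 or more reads per mouse; the 10 smallest p for genotype and 3 for each side test; the 2 tested members with most reads of each gene list; and genes known from earlier results. List members beyond these, Dock9, Ppia and the class rows named were chosen after their values were seen. Some genes that these rules pick are not reported here. Members, gene lists and named-gene rules were chosen with earlier results of these data known. Mice of equal number in the genotypes had a correlation of -0.31 to 0.142 over 5 pairs and 93 genes. Right and left biopsies share a mouse per the labels, yet their correlation was also low, at -0.161 to 0.349 over 11 mice. The right biopsy correlated best with its own left one in 2 of 11 mice. A low correlation therefore cannot decide on a pairing here. The number was not used as a pairing in the main test, since the genotypes are different animals.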

Additional observations from a re-analysis of the deposited data

Results flagged for a closer look

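Of 100 groups of 5 or 6 mice examined for the named genes, 26 had a highest or lowest upstream share far from the nearest other mouse of the group, where chance flags about 1 group in 20. Shares near 0% or 100% cluster at the limit, and many of these values rest on few reads.

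In genes led by upstream reads the value apart was low. Among BERKO mice these were Nsg1 in replicate 4 (99.5%), Ywhaq in replicate 2 (73.4%), Arpp21 in replicate 3 (96.3%), Cdip1 in replicate 4 (92.6%) and Rorb in replicate 4 (79.8%). Among WT mice they were Mobp in replicate 1 (93.5%) and Cdip1 in replicate 3 (97.1%).

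In most such groups of genes led by 5' UTR reads the value apart was high. In BERKO replicate 3 these were Calm2 (0.362%), Ache (4.35%), Psme2 (3.23%) and Rab13 (50.0%). In BERKO replicate 5 they were Prkag2 (5.26%), Dhcr7 (5.26%) and Lingo1 (62.5%). In BERKO replicate 6 they were Mbnl1 (87.5%), Uqcrc2 (1.12%) and Nrgn (0.723%), and in BERKO replicate 4 Rtn4 (5.65%). Among WT mice they were Rapgef4 (5.53%), Gnas (15.8%) and Rtn4 (4.50%) in replicate 1, and Ank2 (15.8%) and Znhit1 (14.3%) in replicate 4.

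The remaining 3 values were low ones, also in Gabrb2 and Rab13, which are led by 5' UTR reads: Sidt1 at 0% in BERKO replicate 2, Gabrb2 at 18.8% in BERKO replicate 4 and Rab13 at 16.4% in WT replicate 1.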

How the results depend on the processing

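For the share per gene, the 5 tests called 0 genes under every alternative run for them: other filters, library sizes by class and the features within 50 bases left out for all 5; DESeq2, limma, thinned reads and the 3 WT libraries left out for BERKO against WT with both sides only; and the replicate block between genotypes (0 genes, both sides and each side) and no block between sides (0 genes); replicates left out in turn gave 0 to 0. Counts for all gene and class rows, 15 of 13201 in the report, were 67 of 13201 with spike-in reads as library size (62 higher and 5 lower, the report's being 5 and 10). These counts were 167 of 41621 without a filter, 118 of 5305 by DESeq2 and 16 of 12349 with the replicate block. They ran from 8 to 61 with 1 mouse left out, the most without WT replicate 4. Members' rows, 0 of 905 in the report, numbered 3 of 905 with spike-in reads (Dbpht2, Hsd11b1 and Nrn1, all higher) and 9 of 2149 without a filter. By DESeq2 they numbered 10 of 426, and with 1 mouse left out 0 to 3. The summed share differed by -0.702 to -0.411 points with 1 mouse left out, and by -0.311 points with only upstream features 1 to 1000 bases before a 5' UTR feature, an alternative added after seeing the data. The log2 odds ratio of Lingo1, 0.16 in the report, was -0.53 without the 3 WT libraries that stand apart, -0.26 with the replicate block, and -0.39 to 0.59 with 1 mouse left out. The cause of these changes was not tested. Genes with under 300 reads had a median standard error of 1.41, against 0.863 at 1000 to 3000 reads and 0.922 above; the part of depth was not separated from that of the spread between mice.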

Other observations

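Markers of other cells that are members showed the same two-ended pattern as the neuronal genes. The oligodendrocyte gene Mobp had 7597 upstream and 53 5' UTR reads. Slc1a2, the glutamate transporter of astrocytes, had 0 upstream and 12482 5' UTR reads, and Mlc1, an astrocyte membrane protein, had 56 and 4116. Sp3, a transcription factor of GC-rich promoters, had 57 upstream and 0 5' UTR reads. Hnrnpa1, an RNA-binding protein, had a share of 1.28 ± 1.06% in BERKO mice and 2.26 ± 1.32% in WT mice (SD, n = 5 and 6). Dlg4 had 93.8 ± 6.09% in BERKO mice and 73.3 ± 15.9% in WT mice, on 321 reads, and did not pass the test.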
